A study of Mus musculus with 12 samples.

Results

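The genes described here are 10 genes of the smooth muscle contractile apparatus: Acta2, Actg2, Myh11, Mylk, Cnn1, Tagln, Lmod1, Smtn, Des and Myocd. They were chosen by annotated symbol in each of the study's tables, and a gene measured more than once was represented by its brightest probe set on average over that table. All 10 were found in both tables, among 19938 genes in adult gonads and 18194 genes in newborn ovaries. The study compared mouse gonads with and without Foxl2, a forkhead transcription factor of granulosa cells, on 12 arrays. The adult arrays, at 8 weeks, held 3 ovaries labelled Foxl2 mutant (Foxl2 flox/flox x CreEBD), 3 wild-type testes and 2 wild-type ovaries, each from a single animal perfused with saline. The labels name neither the promoter of the Cre transgene nor an inducing agent, and they do not say whether the wild-type animals carried the floxed allele. The newborn arrays, at postnatal day 3 (P3), held 2 pools of Foxl2 knockout (KO) ovaries and 2 pools of wild-type ovaries, each pool from more than 10 females that were not perfused.

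Smooth muscle shortens when myosin II pulls on actin filaments, and the pull starts when calcium and calmodulin activate the kinase that phosphorylates the myosin light chain. The genes of the machinery share a regulator: myocardin, the product of Myocd, joins serum response factor on CArG boxes in their promoters. In the ovary, contractile cells surround the larger vessels and form the theca externa, the outer shell of the follicle. In the testis, they surround the vessels and, as peritubular myoid cells, the seminiferous tubules.

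Promoter sequence is shown for Acta2 and Lmod1 because these were the members in which a near match to the CArG box was found. Of the 10 genes, 6 had an entry in the RefSeq promoter table (GRCm38.p6). Its windows were read over the 250 bases before the annotated start. Actg2, Tagln, Myh11 and Myocd had no entry, so their promoters were not read. None of the 6 promoters read held a fully matched CArG box, which 1.47% of all 32851 windows held. With at most 1 of the 10 positions mismatched, 2 of the 6 held a box, against 18.6% of all windows, and none of the 6 held TATAAA on either strand, against 12.4%. The box reads alike on both strands. The stretches shown are chr19:34255383-34255472 on the minus strand for Acta2 and chr1:135324609-135324673 on the plus strand for Lmod1, with the near matches in capitals. In Acta2 these lay 84 to 75 and 34 to 25 bases before the start, and in Lmod1 189 to 180 and 164 to 155 bases before it. These are matches of letters, and no binding was measured.
Acta2: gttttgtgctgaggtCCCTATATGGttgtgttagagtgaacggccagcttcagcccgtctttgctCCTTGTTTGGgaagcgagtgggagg
Lmod1: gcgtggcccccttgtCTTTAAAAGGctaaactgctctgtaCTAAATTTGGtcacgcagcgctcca

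Adult levels are RMA values on a log2 scale, so a difference of 1 is a doubling, and they are compared within a gene and not between genes. The array medians ran between 4.83 and 4.94. Foxl2 stood at 5.81, 6.04 and 5.73 in the mutant ovaries, 5.22 to 5.38 in the testes and 8.75 and 8.81 in the wild-type ovaries. The 5 spermatid markers averaged 3.89 to 4.20 in the mutant ovaries, 11.27 to 11.42 in the testes and 4.17 and 4.30 in the wild-type ovaries.

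**Figure D1:**
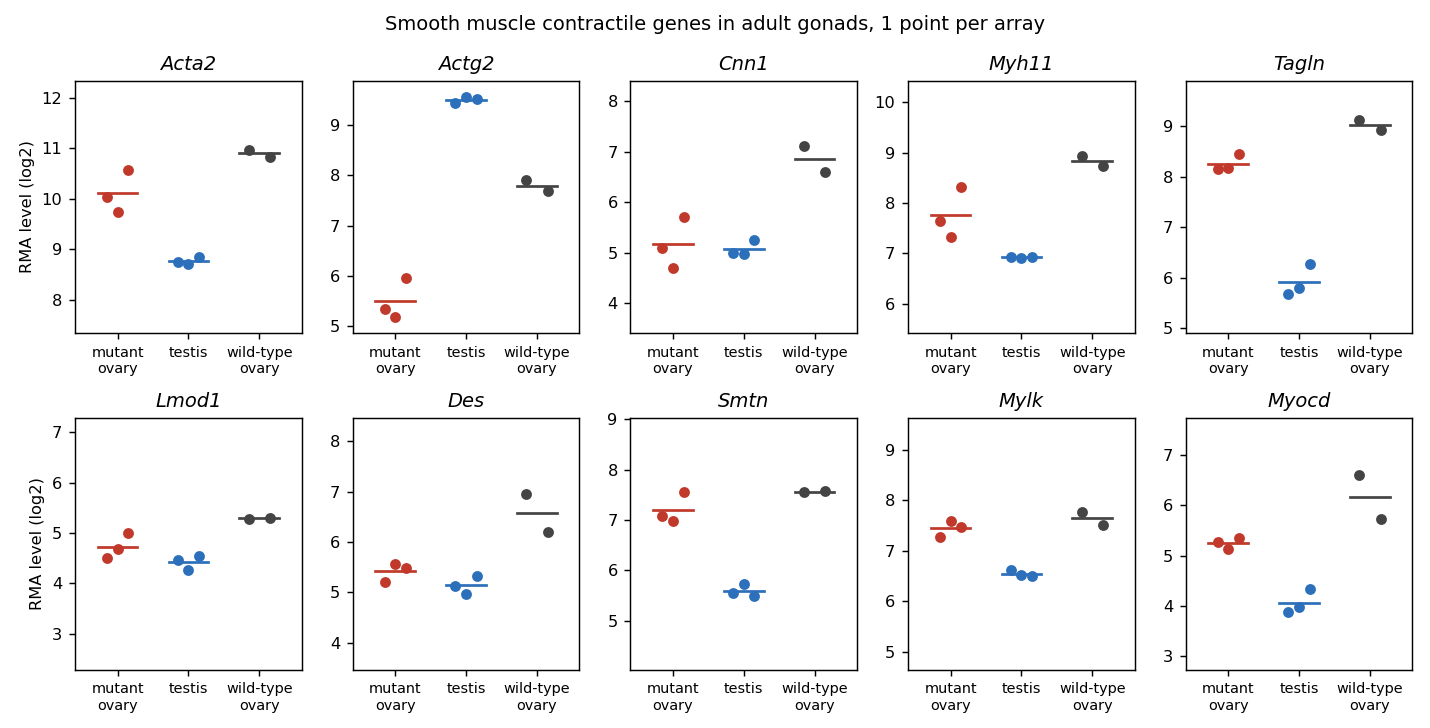
RMA level (log2) of the 10 contractile genes on each adult array, in mutant ovary (n = 3), testis (n = 3) and wild-type ovary (n = 2). Points are arrays in the order of their replicate numbers, bars are group means, and every panel spans 5 log2 units. Actg2 alone was highest in testis, and in the other 9 genes the wild-type ovary mean was the highest of the 3.

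Adult mutant ovaries held less mRNA of most contractile genes than wild-type ovaries. Of the 10 genes 8 fell and none rose at a Benjamini-Hochberg adjusted p under 0.05 (limma). Of all 19938 genes 16.2% passed, 6.66% lower and 9.55% higher. In the same 8 genes every mutant ovary lay below both wild-type ovaries, which 20.6% of all genes showed. The median difference of the 10 genes was -0.84, and that of all genes was -0.02. The largest fall was that of Actg2, and the smallest differences were those of Mylk and Smtn, which did not pass. In these whole-organ samples fewer contractile cells and less RNA per cell cannot be told apart.

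The filament proteins come first. Actg2 encodes γ-actin of visceral smooth muscle, and its level was 5.34, 5.18 and 5.96 in the mutant ovaries, against 7.90 and 7.68 in the wild-type ovaries. All 3 mutant ovaries lay below both wild-type ovaries, by a mean of -2.29 ± 0.20 (SE), or 4.90-fold (adjusted p = 3.87e-05). Acta2, the α-actin that also marks vascular smooth muscle and myofibroblasts, stood at 10.03, 9.74 and 10.57 in the mutant ovaries and at 10.96 and 10.83 in the wild-type ovaries. Its groups were also apart, by -0.78 ± 0.19 (adjusted p = 0.0207), with mutant ovary 3 closest to the wild-type level. Actin isoforms are nearly identical in coding sequence, and how far the array's probes separate them was not tested.

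Myh11, the smooth muscle myosin heavy chain, is among the most specific markers of the lineage. Its level was 7.65, 7.32 and 8.33 in the mutant ovaries and 8.94 and 8.73 in the wild-type ovaries, a fall of 2.09-fold (-1.07 ± 0.24, adjusted p = 0.0120). Mylk, the myosin light chain kinase that starts contraction, overlapped between the groups, at 7.28, 7.59 and 7.47 in the mutant ovaries and 7.78 and 7.51 in the wild-type ovaries (-0.19 ± 0.14, adjusted p = 0.408). Mylk also encodes a longer kinase of non-muscle cells, and the value does not separate the forms.

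Among the actin-binding proteins, Cnn1 differed most. Cnn1 encodes calponin, which binds actin and restrains myosin, and it stood at 5.08, 4.69 and 5.71 in the mutant ovaries, against 7.11 and 6.60 in the wild-type ovaries. No array overlapped, and the fall was 3.23-fold (-1.69 ± 0.27, adjusted p = 0.00178). Tagln encodes transgelin, an early marker of smooth muscle differentiation, and was at 8.15, 8.18 and 8.46 in the mutant ovaries and 9.13 and 8.92 in the wild-type ovaries (-0.76 ± 0.18, adjusted p = 0.0182). The groups of Tagln were apart with little spread in either.

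Lmod1, whose product leiomodin nucleates actin filaments and whose promoter stretch is shown above, was close to the array median, at 4.50, 4.68 and 5.0 in the mutant ovaries and 5.29 and 5.30 in the wild-type ovaries. Its fall of -0.57 ± 0.16 was the smallest of the 8 that passed (adjusted p = 0.0419). Smtn encodes smoothelin of fully contractile smooth muscle, and its levels of 7.08, 6.99 and 7.55 in the mutant ovaries met those of 7.55 and 7.58 in the wild-type ovaries (-0.36 ± 0.17, adjusted p = 0.211). Mutant ovary 3 reached the wild-type level of Smtn, and without it Smtn passed at -0.53 (adjusted p = 0.0378).

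Des encodes desmin, the intermediate filament of muscle. Its level was 5.21, 5.56 and 5.49 in the mutant ovaries and 6.95 and 6.20 in the wild-type ovaries, a fall of 2.23-fold (-1.16 ± 0.22, adjusted p = 0.00498). Myocd, the coactivator itself, was at 5.27, 5.14 and 5.35 in the mutant ovaries and at 6.59 and 5.72 in the wild-type ovaries (-0.90 ± 0.24, adjusted p = 0.0275). In both genes the groups were apart, but the wild-type ovaries differed from each other by 0.75 for Des and 0.87 for Myocd, the widest gaps between them among the 10 genes. Without wild-type ovary 1 the difference of Myocd was -0.47 and did not pass (adjusted p = 0.151), and that of Des was -0.78 and passed.

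The same arrays tended to be high or low across genes. Mutant ovary 3 was the highest mutant ovary in 8 of the 10 genes and the lowest in none, while its Foxl2 level was the lowest of the 3. Wild-type ovary 1 was the higher wild-type ovary in 8 genes. The range within the mutant ovaries had a median of 0.54 over the 10 genes and reached 1.02 for Cnn1. Of the 8 falls, those of Actg2, Cnn1 and Des passed in each of the 14 alternative settings run for this comparison. Without mutant ovary 1, or without wild-type ovary 1, Myh11 passed besides these 3 and Acta2, Tagln, Lmod1 and Myocd did not. Without mutant ovary 2, 5 genes passed, with Tagln, Lmod1 and Myocd lost. Without mutant ovary 3 Myocd did not pass (-0.95, adjusted p = 0.0528). Lmod1 lost its call when any array other than mutant ovary 3 was left out, testes included. In a fit of the ovaries alone, Actg2, Cnn1, Des and Tagln passed, against 2.89% of all genes that were lower.

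**Figure D2:**
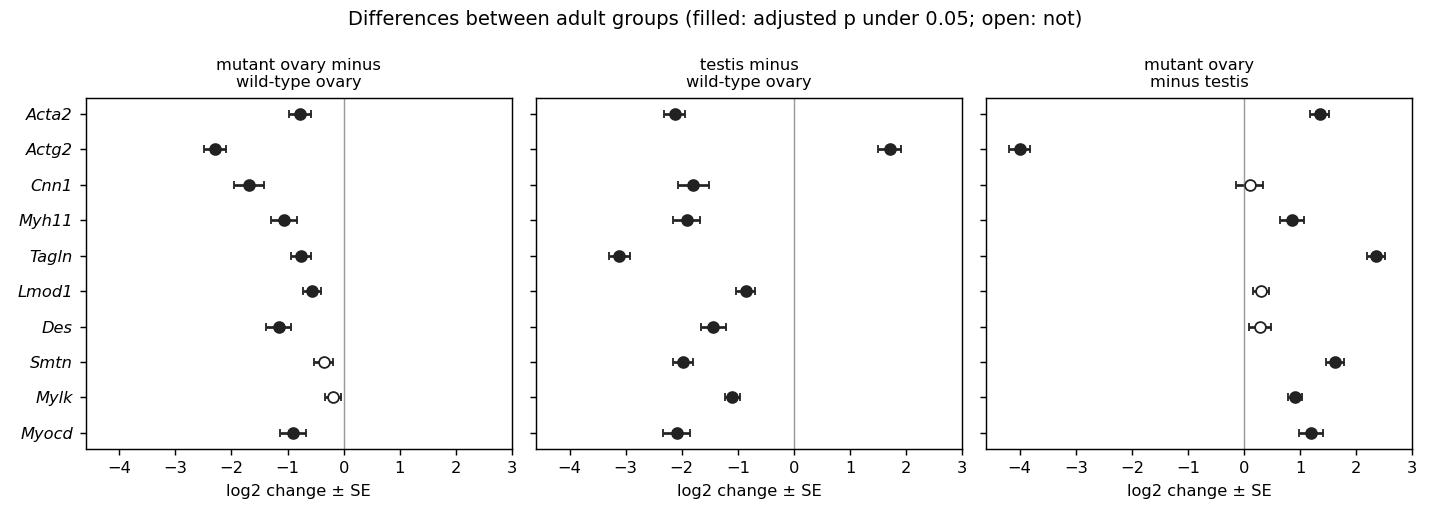
Log2 difference ± SE of each contractile gene for mutant ovary minus wild-type ovary, testis minus wild-type ovary and mutant ovary minus testis (limma over 8 arrays; filled points have an adjusted p under 0.05). Actg2 is the one gene above 0 in testis against wild-type ovary (1.71) and the one well below 0 in mutant ovary against testis (-4.00).

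In adult testis, 9 of the 10 contractile genes were lower than in wild-type ovary and Actg2 was higher. At the same threshold 60.3% of all genes passed, 35.9% lower and 24.4% higher, so most of the measured genes differed between the organs. The median of the 10 genes was -1.85 and that of all genes was -0.15. Every one of the 10 kept its call in the alternatives in which it was tested.

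Actg2 stood at 9.44, 9.55 and 9.51 in the testes, above 7.90 and 7.68 in the wild-type ovaries. The 3 testes lay within 0.11 of each other and above both wild-type ovaries, as in 28.5% of all genes, and the rise was 3.27-fold (1.71 ± 0.20, adjusted p = 2.97e-05). Acta2, the other actin, went the opposite way, at 8.75, 8.71 and 8.85 in the testes against 10.96 and 10.83 in the wild-type ovaries (-2.13 ± 0.19, adjusted p = 3.79e-06). Myh11 varied even less among the testes, at 6.93, 6.90 and 6.92, and lay 3.76-fold below the wild-type ovaries (-1.91 ± 0.24, adjusted p = 3.96e-05).

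Tagln was furthest below, at 5.67, 5.79 and 6.27 in the testes against 9.13 and 8.92 in the wild-type ovaries, or 8.65-fold (-3.11 ± 0.18, adjusted p = 1.16e-07). Myocd was at 3.88, 3.97 and 4.34 in the testes, under the array medians, and differed by -2.09 ± 0.24 (adjusted p = 2.15e-05). Smtn was at 5.55, 5.73 and 5.48 in the testes and differed by -1.97 ± 0.17 (adjusted p = 2.80e-06). Cnn1, Des, Mylk and Lmod1 differed by -1.79, -1.44, -1.09 and -0.86. In all 9 genes every testis lay below every wild-type ovary, a pattern that 45.4% of all genes showed. The spermatid markers given above were high in every testis, and the part of germ cell RNA in these differences was not tested.

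Set directly against testis, mutant ovaries were higher in 6 contractile genes and lower in Actg2. In this comparison 61.8% of the 19938 genes passed, with 37.5% above testis and 24.3% below it. In these 7 genes the groups were apart, as they were in 42.8% of all genes with mutant ovary higher and in 26.7% with it lower. The median was 0.87 for the 10 genes and 0.14 for all genes. This comparison and that with wild-type ovary share the mutant arrays, so their values stand side by side and are no independent evidence of each other.

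Tagln was higher in mutant ovary than in testis by 2.35 ± 0.16 (adjusted p = 3.52e-07), Smtn by 1.62 ± 0.16 and Acta2 by 1.34 ± 0.17. Myocd, Mylk and Myh11 were higher by 1.19 ± 0.21, 0.90 ± 0.12 and 0.85 ± 0.21. Actg2 was lower by 16-fold (-4.00 ± 0.18, adjusted p = 1.16e-08), since it was lowest in the mutant ovaries and highest in the testes. Cnn1, Des and Lmod1 did not pass, at 0.10 ± 0.24, 0.28 ± 0.20 and 0.30 ± 0.15, and for these 3 the mutant ovaries overlapped the testes. Without mutant ovary 3 the difference of Cnn1 was -0.18, and without mutant ovary 1 that of Lmod1 was 0.41 and passed (adjusted p = 0.0427).

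The order of the adult groups was therefore the same in 9 of the 10 genes, with the mean of testis lowest, mutant ovary between and wild-type ovary highest. In Acta2, Myh11, Tagln and Myocd no group overlapped its neighbour in that order. For Cnn1, Lmod1 and Des the mutant ovaries overlapped the testes. For Smtn and Mylk they overlapped the wild-type ovaries. Actg2 had an order of its own, with mutant ovary lowest, wild-type ovary between and testis highest, and with no overlap. How many of all genes showed either order was not counted. Of all genes, 20.6% had every mutant ovary below both wild-type ovaries, and 42.8% had every mutant ovary above every testis. The order is therefore given as a description of the 10 genes only.

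The rest of the contractile apparatus did not move as one in the mutant ovaries. Of 23 other genes measured, 5 fell and 3 rose, and their median was -0.12. Vcl, the adhesion protein vinculin, rose by 0.93 ± 0.14, while Pgm5, a phosphoglucomutase-like protein of muscle adhesions, fell by 0.92 ± 0.26. Itga8, an integrin chain of contractile cells, fell by 0.81 ± 0.21 and Flna, the actin cross-linker filamin A, by 0.75 ± 0.11. In testis 19 of the 23 were lower than in wild-type ovary and 1 was higher (median -1.71), with Cnn3, a calponin of many cell types, at -4.35 ± 0.20, Flna at -3.15 ± 0.11, Actn1, an α-actinin, at -3.01 ± 0.28 and Tpm1, a tropomyosin, at -2.97 ± 0.14. Mutant ovary was above testis in 20 of them and below in 1, against 37.5% and 24.3% of all genes. In mutant against wild-type ovary 6.66% of all genes fell and 9.55% rose. In testis 35.9% were lower than in wild-type ovary and 24.4% were higher. The counts of the adult lists that follow are to be read beside these shares.

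Of 12 regulators around myocardin, 3 rose and 1 fell in mutant against wild-type ovary, and 8 did not pass (median -0.01). Csrp2, a LIM protein of smooth muscle, fell by 1.87 ± 0.25 (adjusted p = 6.21e-04). Mef2c, a MADS-box factor, rose by 0.82 ± 0.13, Mrtfb, a relative of myocardin, by 0.73 ± 0.13 and Klf5, a zinc finger factor, by 0.41 ± 0.12. Srf, the DNA-binding partner of myocardin, differed by 0.20 ± 0.17 and did not pass (adjusted p = 0.486), a gene named here for its role after its value was seen. In testis 8 of the 12 were lower than in wild-type ovary and 2 were higher, against 35.9% and 24.4% of all genes. Among the lower were Gata6, a zinc finger factor of mesenchyme, at -2.91 ± 0.15, Elk1 at -1.90 ± 0.14 and Mef2c at -1.74 ± 0.13. The 2 higher were Klf4, a repressor of smooth muscle genes, at 2.26 ± 0.17 and Klf5 at 1.29 ± 0.12. Klf5 is named here for its direction, since several lower genes differed more.

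Receptors that drive contraction gave 1 fall and 1 rise of 10 measured in mutant ovary, with Ednrb, an endothelin receptor, at -1.47 ± 0.28 and Avpr1a, a vasopressin receptor, at 1.44 ± 0.43. Of the 10, 9 lay below 0 (median -0.20), and 4 had an unadjusted p under 0.05, against 28.9% of all genes. The largest difference, that of Oxtr, was -1.85 ± 0.68 and did not pass (limma adjusted p = 0.0980), a gene named after its value was seen. The receptor mean was 4.81 to 5.16 in the mutant ovaries and 4.96 and 5.84 in the wild-type ovaries. None of the 5 genes of caveolae, the membrane pits abundant in smooth muscle, passed there in the limma fit. At an unadjusted p under 0.05, which 28.9% of all genes reached, 2 of them did, Cavin3 at -0.54 ± 0.21 and Cav1 at -0.51 ± 0.16. In testis all 5 caveolar genes were lower than in wild-type ovary, as were 35.9% of all genes.

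Some markers of vessel cells also fell in mutant ovary, in a comparison where 6.66% of all genes fell and 9.55% rose. Of 9 pericyte markers 2 fell in mutant ovary against wild-type ovary and none rose, namely Mcam, an adhesion molecule of mural cells (-2.03 ± 0.21), and Pdgfrb, the growth factor receptor of pericytes (-1.19 ± 0.27). Their mean level was 5.47 to 5.69 in the mutant ovaries, 4.90 to 4.97 in the testes and 5.92 and 6.69 in the wild-type ovaries. Of 9 endothelial markers 4 fell and none rose, with Pecam1 at -1.26 ± 0.31 and Cdh5 at -1.24 ± 0.19, adhesion proteins of vessel walls, the sialomucin gene Emcn at -1.13 ± 0.28 and the receptor gene Tie1 at -0.98 ± 0.19. The other 5 did not pass, and Kdr and Vwf, named after their values were seen, lay above 0, at 0.16 ± 0.17 and 0.21 ± 0.18. The endothelial mean was 6.82 to 7.13 in the mutant ovaries, 4.96 to 5.0 in the testes and 7.31 and 7.78 in the wild-type ovaries. Wild-type ovary 2 had the higher mean of both vessel lists, whereas 8 of the 10 contractile genes were higher in wild-type ovary 1. The part of vessel cells in the falls of the contractile genes was not tested.

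Of 11 skeletal and cardiac muscle genes 1 rose in mutant ovary, the cardiac myosin gene Myh6 (1.42 ± 0.26), and none fell, with a list mean of 4.72 to 4.99 in the mutant ovaries, 4.51 to 4.70 in the testes and 4.71 and 4.76 in the wild-type ovaries. None of 7 markers of oviduct and uterus passed there, of which 1 had an unadjusted p under 0.05, and the largest differences were those of Msx1 (-0.35 ± 0.15) and Foxj1 (-0.26 ± 0.17). Of 6 fibroblast markers 1 rose, Pdgfra (1.35 ± 0.16), and 1 fell, Lum (-1.16 ± 0.33). All 6 were lower in testis than in wild-type ovary, as were 35.9% of all genes. Of 5 markers of theca and Leydig cells 1 rose in mutant ovary, the hedgehog receptor gene Ptch1 (0.72 ± 0.17). The median difference of the granulosa cell markers was -3.21, against -0.84 for the contractile genes. Of the 7, Foxl2 itself among them, 5 fell and 1 rose.

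**Figure D3:**
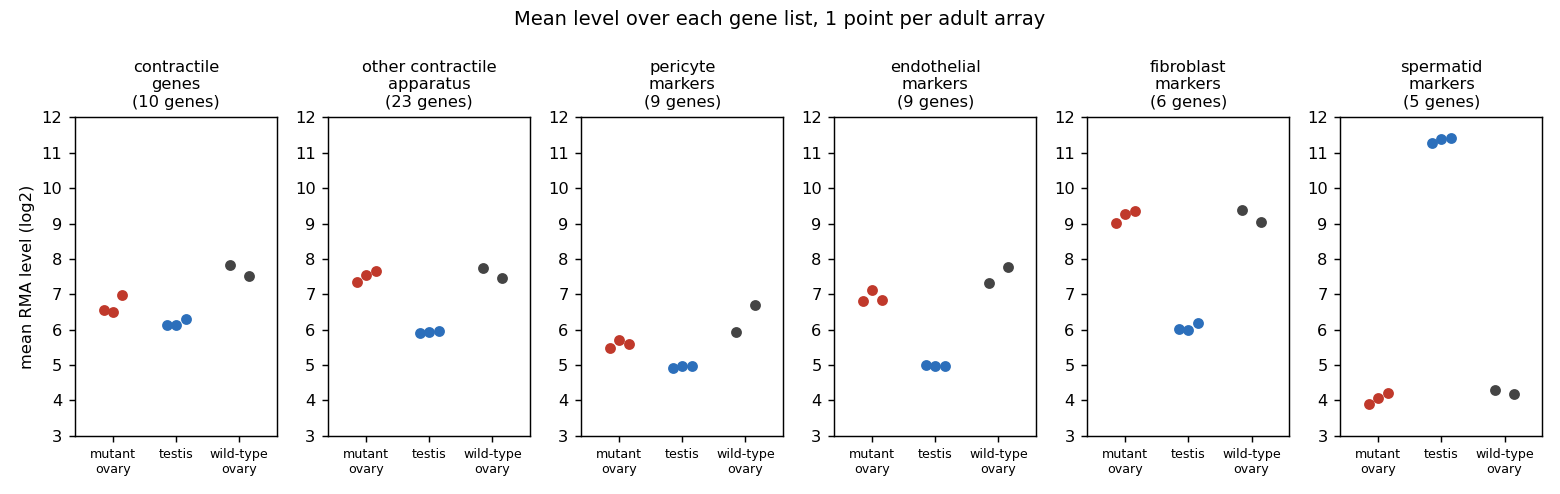
Mean RMA level (log2) over each gene list on each adult array, in mutant ovary (n = 3), testis (n = 3) and wild-type ovary (n = 2), 1 point per array in the order of the replicate numbers. The contractile genes lay at 6.51 to 6.99 in mutant ovary, 6.14 to 6.30 in testis and 7.51 and 7.82 in wild-type ovary, while fibroblast markers lay at 9.02 to 9.34, 5.98 to 6.19 and 9.05 and 9.38.

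The genes whose adult pattern was most like that of the contractile genes were sought among all 19938 by correlation with the mean standardised level of the 10. Over the 8 arrays Pearson's r was 0.996 for Pigx, 0.993 for Tcf19, 0.989 for Astn1, 0.987 for Plod3 and 0.987 for Adpgk. Among the 10 genes themselves r was between 0.870 for Mylk and 0.984 for Myh11, except for Actg2 at -0.37. Each of the 10 is part of the mean it was correlated with, which raises its r, so these values are not set against those of the other genes. The 8 arrays fall into 3 groups, and these values describe the shared order of the groups and arrays.

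At P3, none of the 10 contractile genes passed between KO and wild-type ovaries (limma on log2(signal + 16), 4 arrays), where 0.324% of all 18194 genes did. At an unadjusted p under 0.05 there were 2, Actg2 and Myh11, against 9.53% of all genes. The median of the 10 genes was -0.07 and that of all genes was -0.01. The P3 values are MAS5 signals on a linear scale from another array type, with array medians of 116.6 to 126.8, and are not set against adult levels. Foxl2 gave 186.4 and 153.7 in the KO pools and 814.5 and 829.9 in the wild-type pools. With 2 pools a group, differences of this size that did not pass are not shown to be absent.

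Acta2 signals were 7616 and 6589.6 in the KO pools, within the 6108.5 and 8119 of the wild-type pools (0.01 ± 0.17). Mylk was also bright, at 4473 and 3933 in the KO pools and 4320.4 and 5415 in the wild-type pools, which overlapped (-0.20 ± 0.15). Actg2 was at 311.3 and 338 in the KO pools, below 457 and 577 in the wild-type pools (-0.64 ± 0.21, adjusted p = 0.389). The KO pools of Actg2 lay below both wild-type pools.

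Myh11 lay the other way, at 416 and 505 in the KO pools and 281 and 318 in the wild-type pools (0.59 ± 0.22, adjusted p = 0.453). Both KO pools were above both wild-type pools, unlike the mutant ovaries of the adult set, which were all below their wild-type ovaries. Tagln was at 678.4 and 392.4 in the KO pools and 869.5 and 753 in the wild-type pools (-0.63 ± 0.27, adjusted p = 0.561). Cnn1 was dim, at 33.0 and 38.0 in the KO pools and 42.6 and 45.2 in the wild-type pools (-0.22 ± 0.35). For Actg2, Tagln and Cnn1 the KO pools were below both wild-type pools, as in 19.7% of all genes, and the opposite order of Myh11 was found in 19.3%.

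Smtn gave 284 and 232 in the KO pools and 258 and 321 in the wild-type pools, and Des gave 119.8 and 132 against 125.6 and 88.3. Their groups overlapped. Lmod1 was at 73.1 and 82.1 in the KO pools and 86.3 and 31.5 in the wild-type pools, and Myocd at 116 and 10.4 in the KO pools and 50.6 and 33.0 in the wild-type pools. In all 4 of these genes the pools of at least 1 group differed from each other by more than the group means did. The same held for Acta2, Mylk and Tagln.

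**Figure D4:**
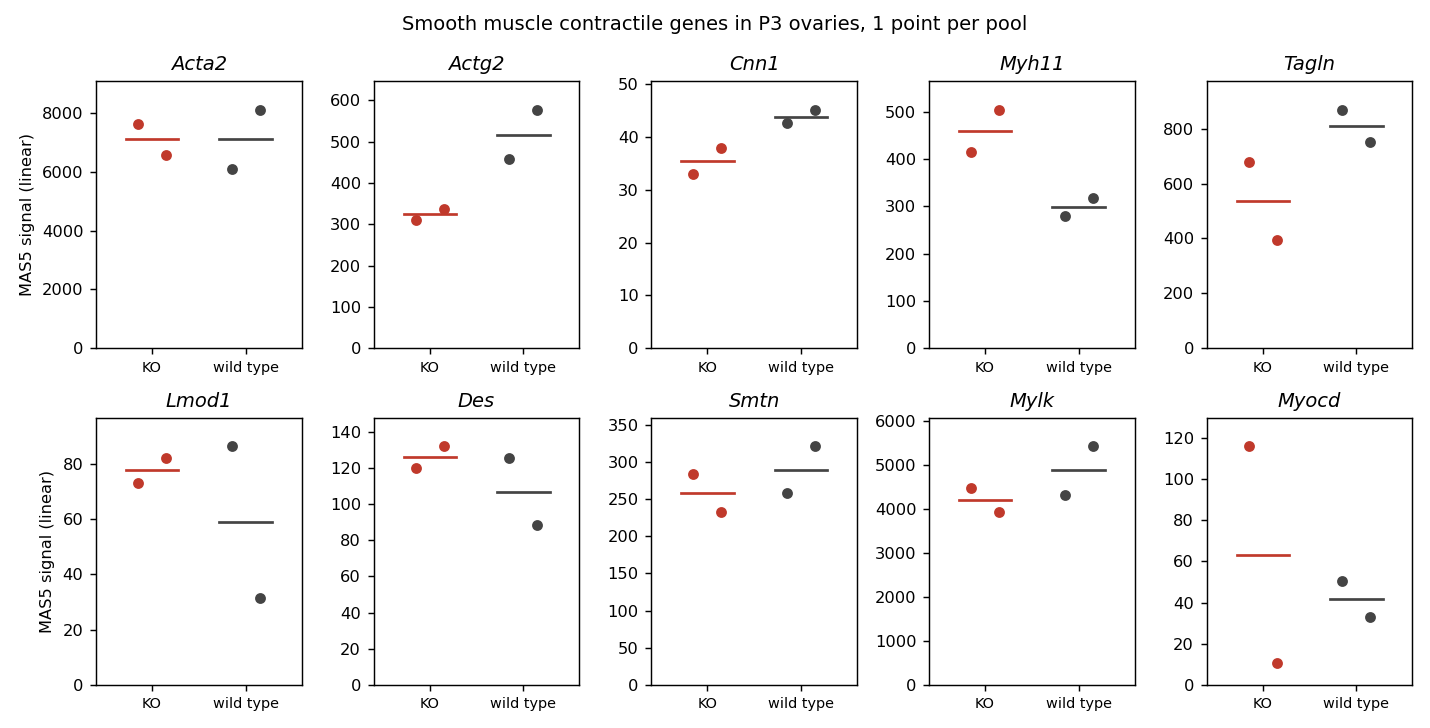
MAS5 signal (linear, from 0) of the 10 contractile genes in each P3 pool, KO (n = 2) and wild type (n = 2), with points for pools and bars for group means. The groups are apart for Actg2, Cnn1 and Tagln, which are lower in KO, and for Myh11, which is higher, and they overlap for the other 6 genes.

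The P3 array held 17 probe sets for the 10 genes, and 5 of the genes had more than 1. The second Des probe set gave 35.6 and 45.5 in the KO pools and 233.3 and 149.4 in the wild-type pools, a difference of -1.85 ± 0.41 that did not pass among 34958 probe sets (adjusted p = 0.268). It thus disagreed with the Des probe set used, at 0.22 ± 0.33, and no direction is given for Des at P3. The means of these probe sets over the 4 pools were nearly equal, so the choice between them rests on a very small difference. The Mylk probe sets not used differed by -0.30 ± 0.33 and -0.48 ± 0.41. Those of Acta2, Myh11 and Myocd had signals of 69.0 or less in all 4 pools. None of the 17 probe sets passed.

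Of the other lists, only that of granulosa cells held genes that passed at P3, with 3 of 7 lower in the KO pools, of which 1 was Foxl2 itself and the others were Hsd17b1 and Nr5a2. None of 23 other contractile genes passed, of which 2 had an unadjusted p under 0.05 (9.53% of all genes). Neither did any of 9 pericyte markers, of which 3 had one, or of 9 endothelial markers, of which 3 had one. The summed signal of the pericyte markers was 5891 and 5074 in the KO pools and 7130.5 and 7174 in the wild-type pools. That of the endothelial markers was 3318 and 2475 in the KO pools and 4159 and 3413 in the wild-type pools. Both sums were lower in each KO pool than in either wild-type pool, and a sum is carried by the brightest genes of its list.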

How the data were processed

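Whole ovaries, or a part of a testis, were profiled on arrays. Per the submitters' processing notes, the adult values were deposited as log2 RMA levels made with Affymetrix Expression Console. The same notes name MAS5 for P3, whose deposited signals are an intensity on a linear scale. On each P3 array the mean after trimming the ends was 500.003, so that the arrays had been scaled alike. Per the labels' protocols the P3 RNA was labelled by a CodeLink protocol, although MAS5 and the style of the probe names are those of Affymetrix. This was not resolved, with tool versions not given in the sources used here.

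Probe sets with a single annotated gene were used (21789 adult, 34958 P3), with symbols updated through the RefSeq table of GRCm38.p6. List genes without such a probe set were not analysed here. Genes were tested with limma 3.58.1 under R 4.3.3 (lmFit, eBayes with an intensity trend, two-sided, Benjamini-Hochberg over all genes of a table, threshold 0.05). The 8 adult arrays were fitted together with 1 mean per group, and the 4 P3 arrays alone after adding 16. A P3 difference understates that of dim genes. Adult replicates are separate animals and P3 replicates separate pools, and their number limits the precision. The code was tested on simulated data.

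The members and gene lists were chosen with earlier results of these data known. Named were all members, Foxl2, up to 4 list genes per comparison with the largest change among those passing (up to 2 where none passed), and the 5 genes most like the members. Outside this rule, Srf, Oxtr, Kdr and Vwf were named in mutant ovary and Klf5 in testis. Replicate numbers were taken as names of animals or pools only. Deviations of same-numbered arrays correlated between -0.00279 and 0.0790, which cannot exclude a shared batch. Alternatives covered the trend, probe sets, a filter on dim genes, scaling, the groups fitted, a replicate block and leaving out each array. The result of 1 further gene list is not reported here.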

Additional observations from a re-analysis of the deposited data

Results flagged for a closer look

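The differences of Myh11 had opposite signs at the 2 ages. In adult mutant ovaries it lay below wild-type ovaries on every array, at -1.07, and at P3 it lay above wild-type in both KO pools, at 0.59. The arrays, alleles and ages differ, and the difference between the effects was not tested. The P3 difference did not pass (limma adjusted p = 0.453), and a dimmer Myh11 probe set gave 0.02 ± 0.38.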

How the results depend on the processing

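All 10 calls of testis against wild-type ovary and all 7 of mutant ovary against testis held in every alternative in which the gene was tested. For mutant against wild-type ovary the count of 8 became 4 in a fit of the ovaries alone (1731 genes in all, against 3232) and 4 to 8 with single arrays left out. The filter on dim genes removed Lmod1 and Myocd from the adult fits, and Cnn1, Lmod1, Des, Smtn and Myocd from the P3 fit. With a replicate block the count stayed at 8, and the block changed no call of a member, although same-numbered arrays are not known to share more than a number. At P3 no member passed in any of the 11 alternatives in which it was tested. The count of all genes, 59, was 186 with dim genes left out, 0 without the intensity trend (limma; 1736 at an unadjusted p under 0.05), 305 with the replicate block and 0 to 22 with single pools left out. The cause was not tested. Uncalled differences changed sign in places. Between mutant ovary and testis Cnn1 ran from -0.18 to 0.33 with single arrays left out. At P3, with single pools left out, Acta2 ran from -0.20 to 0.21, Lmod1 from -0.13 to 0.98 and Myocd from -1.11 to 1.21. Des was -0.71 as the mean of its probe sets, and Myocd was -0.20 with a pseudocount of 1. Other probe sets, fitted after the data had been seen, gave -0.44 for Acta2, -1.85 for Des and -0.26 for Myocd. Array signal near the medians, or under the cutoff of the filter, limits what Lmod1, Myocd and the P3 values of Cnn1, Des and Smtn can show. It also limits adult Cnn1 and Des, whose means in mutant ovary (5.16 and 5.42) and testis (5.06 and 5.14) lay under the adult cutoff for dim genes of 5.51. Their falls and their overlap between these groups carry the same limit. The mean of Actg2 in mutant ovary, 5.50, was also just under that cutoff. The sizes of its differences from wild-type ovary and from testis are limited likewise. At P3 the wild-type mean of Myh11, 8.30, and the KO mean of Actg2, 8.41, as log2(signal + 16), lay just under the P3 cutoff of 8.42. The P3 differences of these genes carry that limit too.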
